A study of Homo sapiens with 12 samples.

Results

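The transcriptional response to insulin was measured in 12Z cells, an immortalized human line from endometriotic epithelium, that expressed the activating PIK3CA mutant H1047R. The comparison comprised 6 of the 12 RNA-seq libraries analysed here, which by their labels were 3 of H1047R cells given insulin and 3 of H1047R cells given vehicle. All 12 cultures first received non-targeting siRNA. H1047R cells were then transfected transiently with the pBabe plasmid carrying PIK3CA H1047R, and control cells with empty pBabe. Serum was withdrawn for 4 h before 100 nM insulin or vehicle was added for 24 h. The study describes 3 independent experiments, all in this 1 line. A transient transfection leaves a mixture of cells with and without plasmid, and in such bulk RNA fewer cells expressing a gene and less of its RNA per cell cannot be told apart. A gene is described by its CPM (counts per 1000000 of the TMM-scaled library total) in the 3 vehicle and then the 3 insulin libraries, each in replicate order. It is said to have risen or fallen where the edgeR quasi-likelihood test, adjusted over all genes tested, gave a false discovery rate (FDR) below 0.001. Effect sizes are log2 fold changes of insulin over vehicle ± SE, with n = 3 libraries per group.

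Insulin binds receptor tyrosine kinases whose adaptor proteins recruit class I phosphoinositide 3-kinase, and PIK3CA encodes p110α, a catalytic subunit of that enzyme. Its lipid product activates AKT, which holds FOXO transcription factors out of the nucleus and relieves the inhibition of mTORC1, the kinase complex that promotes protein and lipid synthesis. H1047R is a hotspot substitution of the kinase domain that raises the enzyme's activity, and PIK3CA mutations are found in endometriotic epithelium.

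The 12Z libraries carried keratins together with mesenchymal transcripts. Among the 6 libraries, KRT8 and KRT18, keratins of simple epithelia, lay at 1369 to 1504 and 965 to 1122 CPM. EPCAM, an epithelial adhesion molecule, lay at only 0.379 to 0.493 CPM and CDH1, which encodes E-cadherin, at 1.11 to 2.38 CPM, while VIM, a mesenchymal intermediate filament, lay at 1966 to 2348 CPM. The summed level of 6 immune markers was 4.01 to 4.88 CPM in the vehicle and 4.97 to 5.25 CPM in the insulin libraries, and that of 6 endothelial markers was 7.71 to 9.3 and 8.83 to 9.7 CPM. No erythroid or platelet marker reached the level needed for testing. PTPRC, the pan-leukocyte antigen CD45, was at most 0.994 CPM, and PECAM1, an endothelial adhesion receptor, at most 0.523 CPM. PGR, the progesterone receptor of endometrium, was at 1.25 to 2.03 CPM.

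Library composition moved with insulin in H1047R cells. The insulin libraries held 30071951 to 37918025 gene counts and the vehicle libraries 23766993 to 25872417. Reads placed at several sites, which the counts leave out, made up 8.48 to 9.51% of the insulin libraries and 14.3 to 15.2% of the vehicle libraries, and 13.6 to 15.4% of the 6 control libraries. Each of these differences had an exact two-sided permutation p of 0.1, the smallest that 3 against 3 libraries allow. The part of this shift in the gene results was not tested. Replicate 1 of H1047R vehicle also stood apart from its group, with more PIK3CA and more interferon-induced transcripts than replicates 2 and 3, so log2 fold changes in H1047R cells that moved by over 1.5 times when it was left out are also given without it.

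PIK3CA itself (hg38 chr3:179148114-179240093, plus strand) differed between the groups. It was at 312, 180.1 and 215 CPM in the vehicle libraries and at 734, 714 and 715 CPM in the insulin libraries, a log2 fold change of 1.62 ± 0.08, or 1.90 without vehicle replicate 1. In control cells it lay between 80.9 and 89.0 CPM in all 6 libraries, with a log2 fold change of -0.10 ± 0.09 for insulin. Plasmid-borne and chromosomal PIK3CA transcripts are counted together, and an effect of insulin cannot be told apart from an effect of the higher PIK3CA level in the same libraries. Each insulin result in H1047R cells therefore describes H1047R cells with insulin and high PIK3CA against H1047R cells with vehicle and less PIK3CA.

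Of 22756 genes tested, 4471 (19.6%) were called, 2242 higher (9.85%) and 2229 lower (9.8%) with insulin, and the median log2 fold change over all genes tested was -0.0006. More than 2-fold changes were seen in 364 of the genes that rose and 178 of those that fell, and more than 4-fold changes in 100 and 24. Counts for gene lists are to be read against those percentages, which depend on level. Genes averaging at least 1 CPM over the 6 libraries were divided into 5 bins by level. In the lowest bin 8.94% were called higher and 7.25% lower, and in the highest bin 18.65% and 26.32%. Lists of abundant genes are to be read against the latter. The plot of the lists shows where members lay to 1 side.

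**Figure D1:**
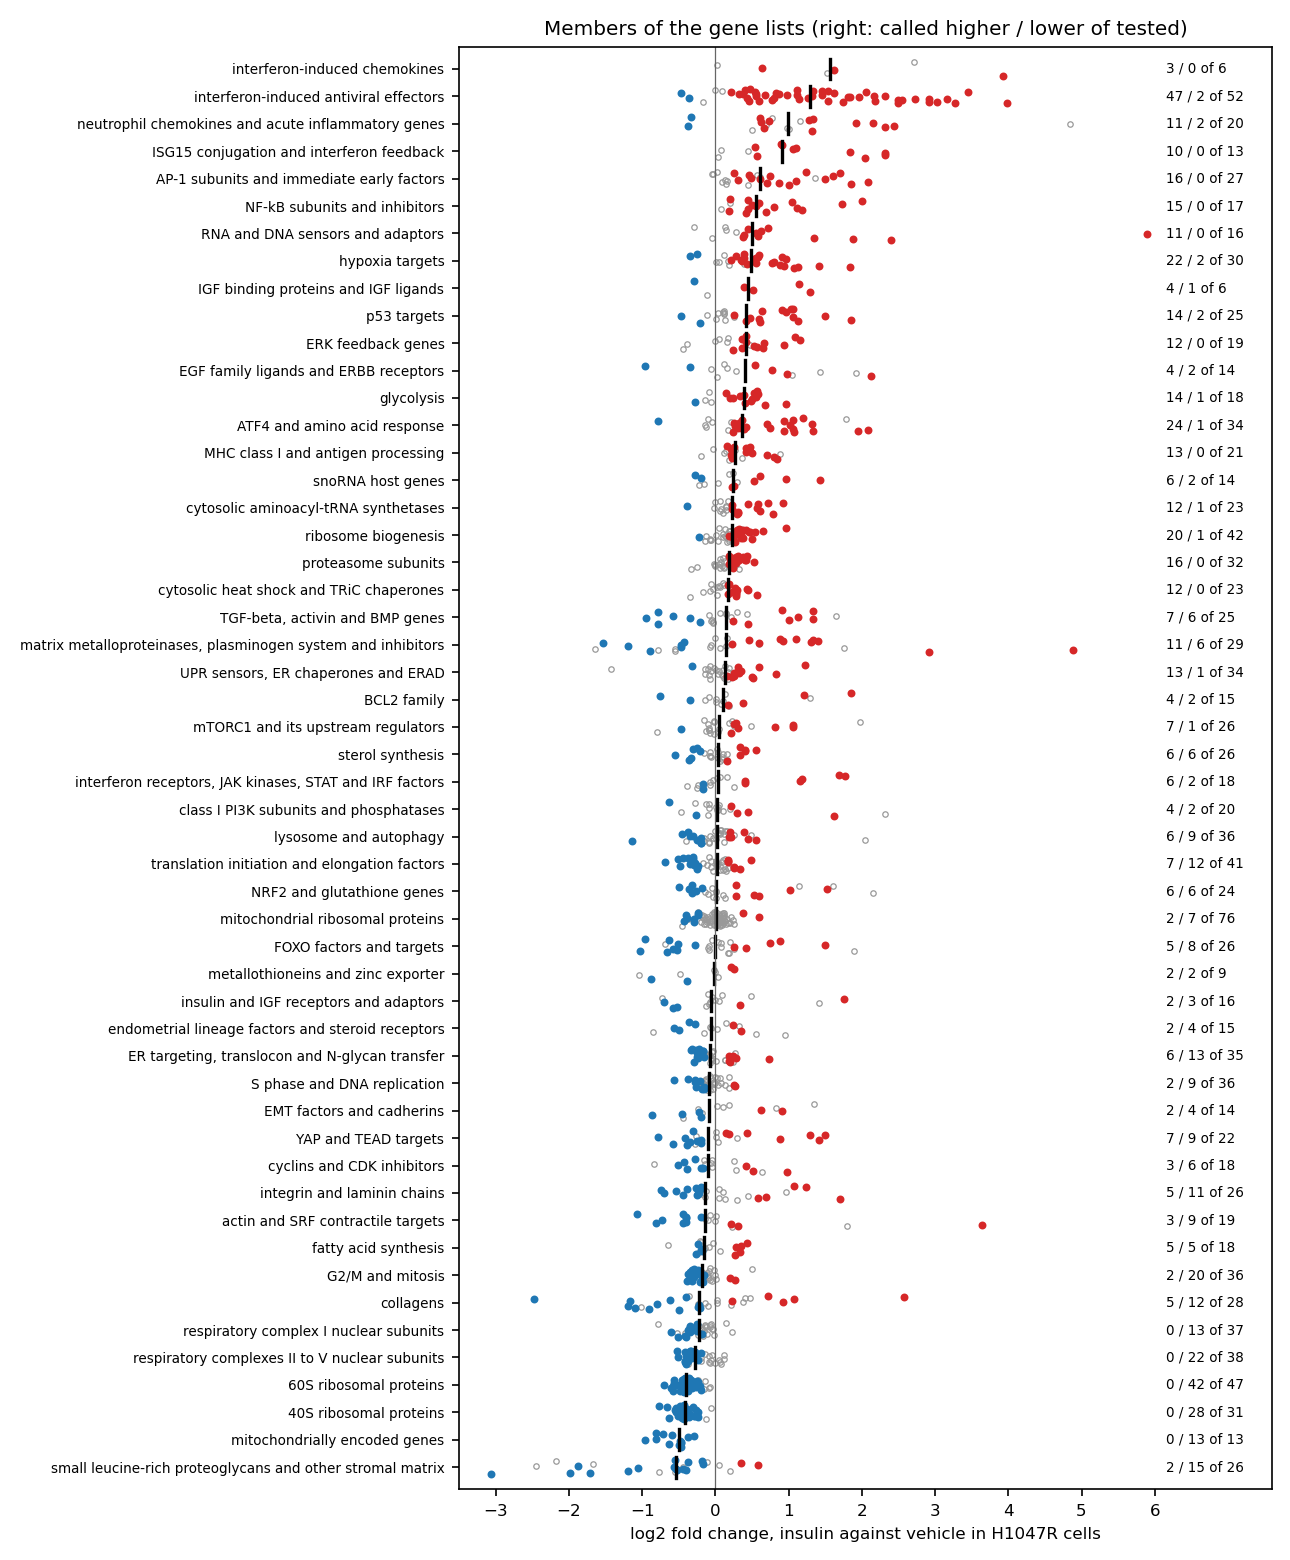
Log2 fold change of insulin over vehicle in H1047R cells (x axis) for each tested member of the gene lists with at least 6 tested members (rows), in red where called higher, in blue where called lower and as open points where not called, with a black bar at the list's median and the counts of members higher and lower at the right. Antiviral effectors lie mostly to the right (47 of 52 higher), ribosomal protein genes to the left (28 of 31 and 42 of 47 lower), and the lists of sterol synthesis and of mitochondrial ribosomal proteins near 0.

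Genes that receive the insulin signal moved in both directions. Of 16 tested receptor and adaptor genes, 2 rose and 3 fell (median log2 fold change -0.06). INSR, the insulin receptor, was at 32.4, 31.7 and 34.3 CPM with vehicle and at 21.1, 22 and 22.7 CPM with insulin, a log2 fold change of -0.58 ± 0.06. IGF1R, the related IGF-1 receptor, fell by 0.52 ± 0.04 on the log2 scale, from 93.8, 101 and 100.5 to 69.9, 67.5 and 67.9 CPM. Both receptors also fell in control cells given insulin (-0.34 ± 0.06 and -0.48 ± 0.05), and for neither was a difference between the states called. GAB2, a docking adaptor, fell from 16, 18.3 and 16.4 to 10.4, 9.82 and 10.9 CPM (-0.70 ± 0.08).

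GRB10, an adaptor that binds the insulin receptor and dampens its signal, showed the largest rise of the receptor and adaptor list. Its level was 51.9, 33.4 and 37.2 CPM with vehicle and 137, 139.6 and 137 CPM with insulin, a log2 fold change of 1.76 ± 0.07 (1.99 without vehicle replicate 1). In the 6 control libraries GRB10 stayed between 31.4 and 36.2 CPM. The 2 main insulin receptor substrates parted: IRS1 rose from 50.3, 40.7 and 41 to 56.5, 54.1 and 55.9 CPM (0.34 ± 0.06), whereas IRS2 was at 21.7, 20.6 and 22.3 and at 20.1, 19.9 and 21 CPM, with groups that overlapped (-0.08 ± 0.07, FDR 0.442). In control cells both IRS1 (-0.34 ± 0.06) and IRS2 (-0.50 ± 0.08) fell with insulin.

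Of 20 tested genes for class I PI3K subunits, AKT kinases and opposing phosphatases, 4 rose and 2 fell (median 0.03). Apart from PIK3CA, the regulatory subunits PIK3R3 (0.44 ± 0.06) and PIK3R1 (0.29 ± 0.07) rose, and PIK3R3 rose in control cells as well (0.59 ± 0.06). PIK3CB, which encodes the other widely expressed catalytic subunit p110β, had a log2 fold change of -0.10 ± 0.05 and was not called. PIK3IP1, an inhibitor of p110, fell from 14.8, 14.7 and 13.6 to 8.23, 11.1 and 8.4 CPM (-0.64 ± 0.09). Only 2 of the list rose without vehicle replicate 2, insulin replicate 1 or insulin replicate 3, and PIK3R1 lost its call in each case. The kinases AKT1 (-0.09 ± 0.04) and AKT2 (-0.13 ± 0.04) were not called.

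Among 6 tested IGF ligand and binding protein genes, which set how much IGF reaches its receptor, 4 rose and 1 fell (median 0.45). IGFBP3, the main IGF carrier of serum, rose from 25.1, 19.6 and 20.6 to 52.9, 53.7 and 52.9 CPM (1.29 ± 0.06). IGFBP6 rose from 98.6, 65.2 and 63.6 to 174, 164 and 163 CPM (1.14 ± 0.08), and IGFBP4 from 359, 299.8 and 293 to 448, 445 and 468 CPM (0.52 ± 0.05). In each of these genes all insulin libraries lay above all vehicle libraries, as they did in 5155 of the 22756 genes tested. Vehicle replicate 1 was the highest of its group for all 3. IGFBP7 fell by 0.29 ± 0.05 on the log2 scale, a call lost without insulin replicate 3.

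FOXO factors and their targets split, with 5 of 26 higher and 8 lower (median 0.00). Several targets that FOXO factors are known to activate fell. CDKN1B, the cell cycle inhibitor p27, went from 127, 133 and 142 to 93, 96.5 and 92.6 CPM (-0.51 ± 0.05), ERBB3, a receptor of the EGF receptor family, from 24.3, 27.3 and 23.9 to 13, 12.5 and 13.5 CPM (-0.96 ± 0.07), and YPEL3 from 21.5, 23.8 and 24.8 to 11.7, 11.6 and 11.2 CPM (-1.03 ± 0.07). FOXO4 itself fell by 0.66 ± 0.06 on the log2 scale. Other members rose: GADD45A, a stress-induced growth arrest gene, from 27.7, 21.6 and 22.4 to 66.8, 68.5 and 67.1 CPM (1.50 ± 0.06), TNFSF10, the death ligand TRAIL (0.89 ± 0.09), and TXNIP, an inhibitor of glucose uptake and thioredoxin (0.75 ± 0.06). GADD45A also stands on the p53 list, and TNFSF10 is also known as an interferon-induced gene. In control cells 6 of the 26 fell with insulin and 1 rose (median -0.21). YPEL3 (-0.52) and FOXO4 (-0.29) fell there too, whereas CDKN1B and ERBB3 were not called. The control call of FOXO4 was lost without any 1 of the 6 control libraries.

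The list of mTORC1 and its regulators had 7 of 26 members higher and 1 lower (median 0.05). The members that rose the most are inhibitors of mTORC1. SESN2, an amino acid stress sensor, rose from 4, 3.7 and 3.85 to 8.59, 7.76 and 7.78 CPM (1.06 ± 0.11), and DDIT4, a hypoxia- and stress-induced inhibitor known as REDD1, from 86.6, 74 and 69.3 to 159, 158 and 160.0 CPM (1.06 ± 0.05). DDIT4 rose in control cells too (0.71 ± 0.06), and its rise in H1047R cells was larger by 0.35 ± 0.08, a difference that was no longer called without any 1 of 10 libraries (FDR up to 0.00451 over all alternatives). RRAGC and RRAGD, GTPases that bring mTORC1 to the lysosome, rose by 0.30 ± 0.06 and 0.81 ± 0.17 log2 units. MTOR itself was not called (-0.02 ± 0.04). Without insulin replicate 3, 3 members rose, RRAGC and RRAGD not among them, and RRAGD also lost its call without insulin replicate 2 or vehicle replicate 2 or 3.

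Lipid synthesis genes moved little and to both sides. Of 26 sterol genes 6 rose and 6 fell (median 0.04), and of 18 fatty acid synthesis genes 5 rose and 5 fell (median -0.16). The 5 lower became 1 without insulin replicate 1, 2 without vehicle replicate 2 and 3 without insulin replicate 3. FASN, the fatty acid synthase, rose from 985, 910.2 and 918 to 1147, 1170.0 and 1223 CPM (0.33 ± 0.04). FDPS, which makes farnesyl diphosphate for sterols and prenyl groups, went the other way (-0.33 ± 0.04). SREBF1, the transcription factor that insulin is best known to induce in liver, was at 122, 116 and 120.5 and at 113, 110.0 and 116 CPM and was not called (-0.08 ± 0.04, FDR 0.135). SCD, a desaturase and SREBF1 target, was at 0.06 ± 0.03 in H1047R cells (not called) and rose in control cells (0.23 ± 0.03), and the difference was not called (FDR 0.00351).

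**Figure D2:**
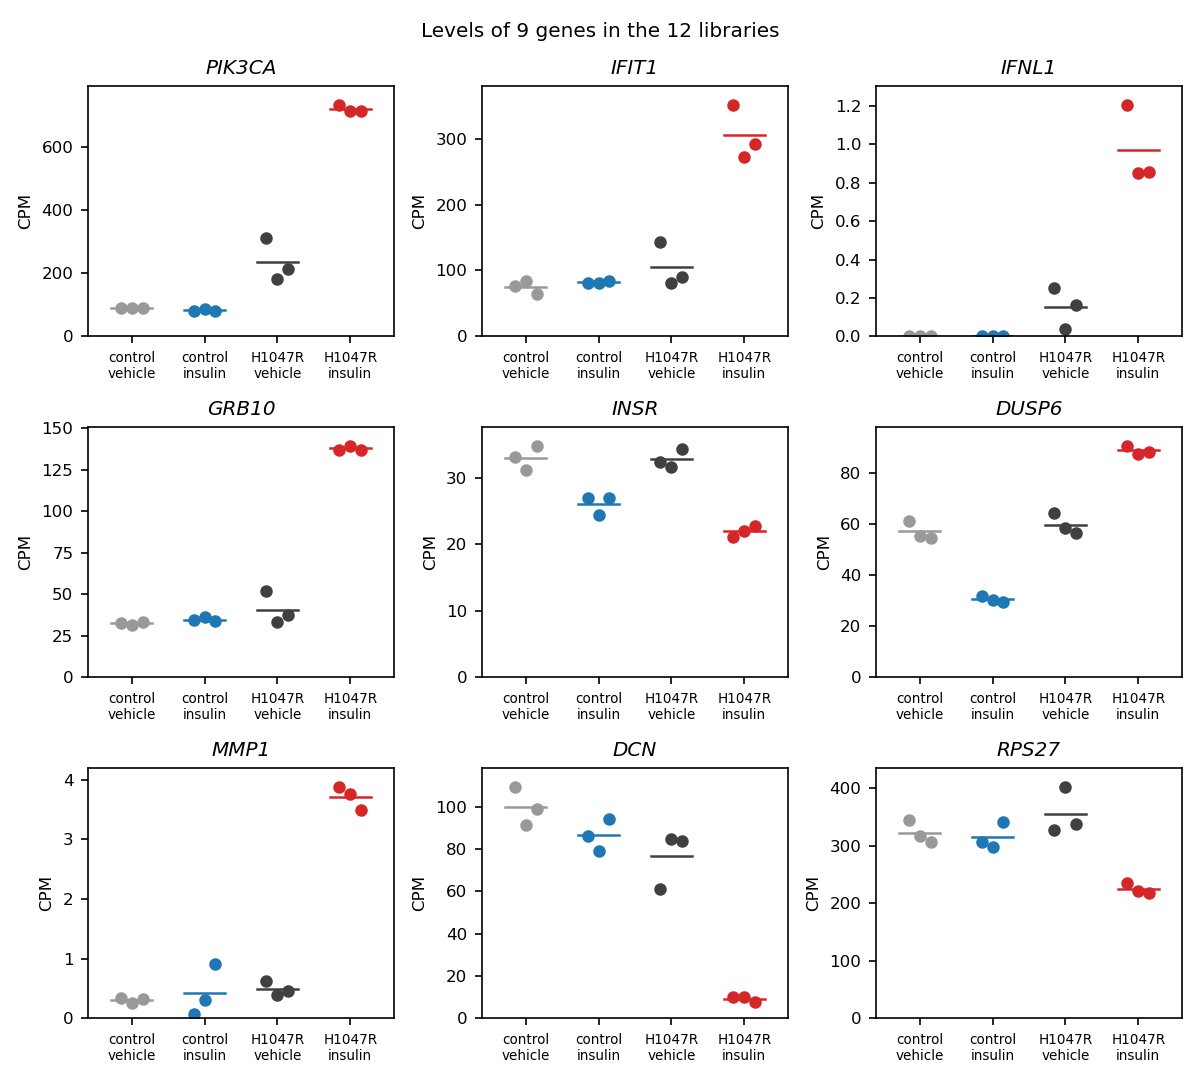
CPM on linear axes from 0 for PIK3CA, IFIT1, IFNL1, GRB10, INSR, DUSP6, MMP1, DCN and RPS27 in the 12 libraries, grouped by cell state (control, then H1047R) and by treatment within it (vehicle, then insulin), with a point per library and a line at each group mean. PIK3CA and GRB10 are highest in the H1047R insulin libraries, INSR falls with insulin in both states, and DUSP6 falls in control cells (29.5 to 31.9 CPM with insulin) but rises in H1047R cells (87.6 to 90.8 CPM).

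Interferon-induced antiviral genes were the list with the highest share of members that rose. Type I and III interferons act through JAK kinases on a complex of STAT factors and IRF9, which binds the interferon-stimulated response element (ISRE) in promoters. Promoter sequence from RefSeq (GRCh38.p14, 250 bases before to 50 after the annotated start) was available for 13370 of the genes tested. The letters GAAANNGAAA, searched on both strands and allowed to overlap one another, were found in 389 of these promoters (2.91%), in 5.15% of the promoters of genes that rose and in 2.26% of those that fell. Among antiviral effectors they were found in 25 of 39 promoters (64.1%), among genes of ISG15 conjugation and interferon feedback in 6 of 10 (60%), and among 60S ribosomal proteins in 1 of 38 (2.63%). The 92 matching promoters of genes that rose include 25 of antiviral effectors, 5 of the ISG15 list and 3 of nucleic acid sensors and adaptors. A match in these letters is a description and not a measured binding site. These promoters belong to 4 genes that rose and show how the matches lie, with matching bases in capitals, written 5′ to 3′ on the gene's strand. IFIT1 and IFIT3, taken because their levels are high, were named after their values were seen. IFIT1 lies at chr10:89392373-89392672, IFIT3 at chr10:89327747-89328046, ISG15 at chr1:1013247-1013546 and IFI44L at chr1:78620198-78620497, all on the plus strand.
IFIT1: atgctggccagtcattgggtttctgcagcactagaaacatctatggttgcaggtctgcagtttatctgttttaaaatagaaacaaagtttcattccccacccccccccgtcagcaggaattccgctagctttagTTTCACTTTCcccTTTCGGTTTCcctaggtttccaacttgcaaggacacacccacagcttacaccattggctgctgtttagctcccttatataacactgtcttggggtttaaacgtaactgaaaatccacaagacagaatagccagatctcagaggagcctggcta
IFIT3: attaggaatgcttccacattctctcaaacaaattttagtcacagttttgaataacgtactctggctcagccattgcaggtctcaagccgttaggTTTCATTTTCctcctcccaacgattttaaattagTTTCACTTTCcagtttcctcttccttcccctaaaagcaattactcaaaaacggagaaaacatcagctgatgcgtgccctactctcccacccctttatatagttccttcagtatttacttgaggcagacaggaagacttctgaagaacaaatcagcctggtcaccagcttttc
ISG15: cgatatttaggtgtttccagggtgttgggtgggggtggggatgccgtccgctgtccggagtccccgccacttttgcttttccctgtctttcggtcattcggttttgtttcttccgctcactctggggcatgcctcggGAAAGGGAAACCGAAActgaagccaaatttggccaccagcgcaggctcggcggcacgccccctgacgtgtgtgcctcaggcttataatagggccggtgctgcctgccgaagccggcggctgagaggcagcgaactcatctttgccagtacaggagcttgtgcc
IFI44L: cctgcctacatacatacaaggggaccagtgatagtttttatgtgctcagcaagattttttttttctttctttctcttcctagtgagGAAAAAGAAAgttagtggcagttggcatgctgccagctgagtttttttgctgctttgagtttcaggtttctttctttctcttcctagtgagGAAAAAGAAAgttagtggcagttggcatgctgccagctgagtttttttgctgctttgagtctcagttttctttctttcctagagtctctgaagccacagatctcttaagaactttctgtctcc
IFIT1 and IFIT3 each hold a pair of separate matches read on the opposite strand, ISG15 holds overlapping matches, and IFI44L holds the same match in a repeated stretch.

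In the list of 52 antiviral effectors, 47 rose (90.4%) and 2 fell, with a median log2 fold change of 1.29. IFIT1 was at 144, 80.5 and 90.5 CPM with vehicle and at 352, 273 and 292 CPM with insulin (1.54 ± 0.10). IFIT3, which binds viral RNA in a complex with IFIT1, was at 134, 60.8 and 72 CPM in the vehicle libraries and at 512, 471 and 515 CPM in the insulin libraries (2.49 ± 0.12). MX1, a GTPase that blocks viral replication and is also named after its values were seen, went from 118, 28.4 and 37.9 to 446, 269 and 355 CPM (2.54 ± 0.23). RSAD2, which encodes viperin and which the study followed up, went from 12.6, 2.22 and 3.4 to 99, 86.2 and 98.1 CPM (3.98 ± 0.18). For all 4 genes the insulin libraries lay above the vehicle libraries, as in 5155 of the 22756 genes tested. Vehicle replicate 1 was the highest vehicle library for each of the 4.

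Without vehicle replicate 1 the same numbers of antiviral effectors passed, 47 higher and 2 lower, and the median log2 fold change was 1.53. The log2 fold change became 5.10 for RSAD2, 2.94 for IFIT3 and 3.45 for MX1. Summed over the list, the effectors reached 4423, 3036 and 3168 CPM with vehicle and 8539, 7064 and 7858 CPM with insulin, and 2689 to 2945 CPM in the 6 control libraries. In control cells none of the 52 passed, and the difference between the states was called for 41, all higher in H1047R cells.

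A few effectors fell or overlapped between the groups. IFITM2, a membrane protein that limits viral entry, fell from 71.9, 63.2 and 64 to 56.1, 49.9 and 49.6 CPM (-0.36 ± 0.05), and GBP2, an interferon-induced guanylate-binding GTPase, from 24.4, 24.6 and 24 to 17.4, 18.4 and 16.9 CPM (-0.47 ± 0.07). IFITM3, a close homologue in the same gene cluster, was at 417, 292 and 270.2 CPM with vehicle and 523, 384 and 422 CPM with insulin (0.44 ± 0.08), and its groups overlapped because vehicle replicate 1 lay above 1 insulin library. LGALS3BP, a secreted scavenger receptor protein, rose by 0.22 ± 0.05 with overlapping groups as well. Both calls were lost with DESeq2, without vehicle replicate 2 and without insulin replicate 1.

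**Figure D3:**
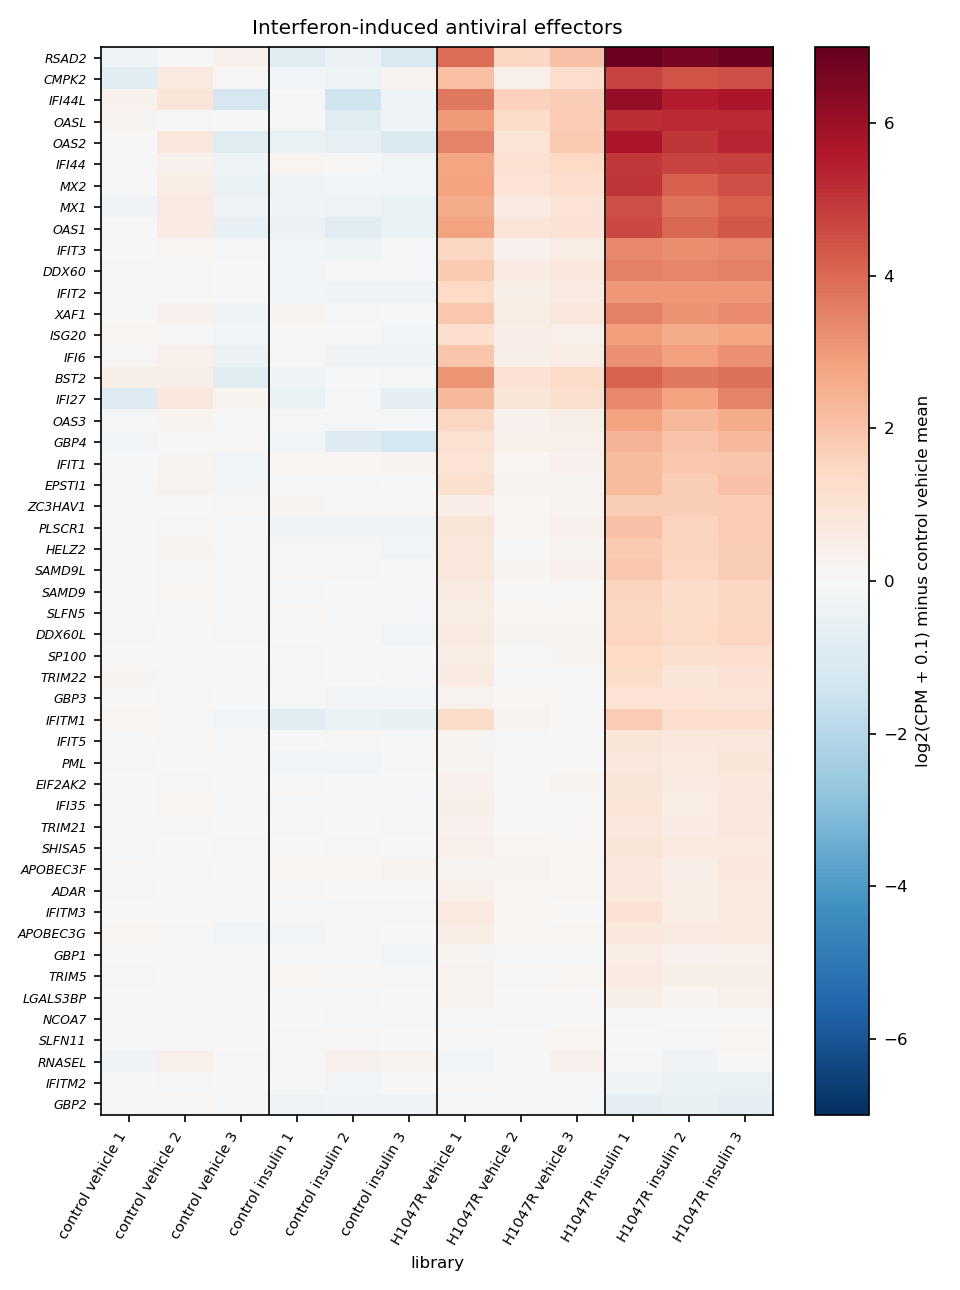
Heat map of the 50 antiviral effectors averaging at least 1 CPM in H1047R cells (rows) in the 12 libraries (columns), coloured by log2(CPM + 0.1) minus the mean of the 3 control vehicle libraries. The 3 H1047R insulin columns are raised for most genes, and among the H1047R vehicle columns replicate 1 is raised above replicates 2 and 3, with summed levels of 4423, 3036 and 3168 CPM.

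Genes of the ubiquitin-like modifier ISG15 and of interferon feedback followed, with 10 of 13 higher and none lower (median 0.91, or 1.08 without vehicle replicate 1). ISG15 rose from 61.7, 27.3 and 27.7 to 166, 145 and 169.5 CPM (2.05 ± 0.14). HERC5, the ligase that attaches ISG15, rose from 24.4, 8.8 and 13 to 77.5, 76 and 75.5 CPM (2.32 ± 0.13), and USP18, the protease that removes it and damps the interferon receptor, from 7.49, 4.83 and 4.6 to 23.8, 16.7 and 20.4 CPM (1.84 ± 0.12). Not every step of the cycle was called: UBA7, the activating enzyme of the pathway, was at 20.1, 20.8 and 17.6 and at 20.2, 20.2 and 19.9 CPM (0.04 ± 0.07, FDR 0.719). The cytokine signalling suppressors SOCS1 (0.45 ± 0.27) and SOCS3 (0.08 ± 0.07) were not called either.

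Upstream of interferon, 11 of 16 sensors and adaptors of foreign or misplaced nucleic acid rose and none fell (median 0.50). RIGI, the RNA helicase sensor RIG-I, rose from 51, 23.3 and 29.4 to 193, 170.1 and 183 CPM (2.40 ± 0.11), and IFIH1, the related sensor MDA5, from 32, 14.9 and 17.8 to 86.9, 69.3 and 80.7 CPM (1.88 ± 0.12). The adaptor of both, MAVS, lay at 293, 297 and 299 and at 284, 289 and 289 CPM and was not called (-0.04 ± 0.04). For cytosolic DNA, the sensor CGAS rose by 0.55 ± 0.10 while its adaptor STING1 did not pass (0.28 ± 0.08, FDR 0.00329). ZBP1, a sensor of Z-form nucleic acid, had 0 counts in all 3 vehicle libraries and 5, 7 and 16 in the insulin libraries, at least 6.66-fold higher against a floor of 3 counts over the vehicle group. Its call was lost when any 1 of the 6 libraries was left out (FDR up to 0.00828), and DESeq2 gave an unadjusted p of 0.23 and no adjusted p.

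Interferon ligands were scarce. IFNL1, a type III interferon of epithelia, rose from 0.253, 0.0389 and 0.166 to 1.21, 0.853 and 0.856 CPM (2.65 ± 0.47, FDR 1.59e-05, or 3.23 without vehicle replicate 1), and it had no count in any of the 6 control libraries. DESeq2 gave no adjusted p for IFNL1 (unadjusted p 2.9e-05). IFNB1, the first type I interferon of many cells, had 0, 1 and 0 counts with vehicle and 6, 3 and 7 with insulin, and was not called (FDR 0.0338). Of 18 interferon receptor, JAK, STAT and IRF genes, 6 rose and 2 fell (median 0.04). IRF7, the factor that amplifies interferon transcription, rose from 9.64, 5.49 and 5.72 to 26.1, 20.2 and 24.7 CPM (1.77 ± 0.12), and IRF1 from 40.2, 29.7 and 31.4 to 75.5, 77.2 and 76.5 CPM (1.18 ± 0.06). The receptor chain IFNAR1 (-0.17 ± 0.04) and its kinase JAK1 (-0.17 ± 0.04) fell slightly, but with DESeq2 size factors, with library totals only, with no filter, and without vehicle replicate 2 or 3 or insulin replicate 1 or 3, neither was called.

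Antigen presentation rose by smaller steps. Of 21 MHC class I and antigen processing genes 13 rose and none fell (median 0.26). HLA-B, a class I heavy chain, rose from 25.3, 17.2 and 20.1 to 42.3, 34.3 and 36.2 CPM (0.85 ± 0.08), TAP1, the peptide transporter, from 29.9, 22.9 and 21.6 to 39.8, 37.6 and 43.4 CPM (0.70 ± 0.08), and B2M, the shared light chain, by 0.21 ± 0.05, a call lost with DESeq2 and without any 1 library but vehicle replicate 1. Class I heavy chains resemble each other, so reads could be split between them. The count of 13 fell to 6 without vehicle replicate 3 and to 8 without insulin replicate 1 or 3. Of 6 chemokines induced by interferon, 3 rose and none fell: CXCL10, which attracts lymphocytes, with 1, 0 and 1 counts against 15, 21 and 14, CCL5 (1.61 ± 0.31, or 2.41 without vehicle replicate 1) and CCL2 (0.64 ± 0.10), a monocyte chemokine with levels of 14.5, 10.9 and 10.7 against 20.5, 19 and 16.8 CPM. Without vehicle replicate 2 only CCL2 was called, CCL5 lost its call without insulin replicate 1 and CXCL10 without insulin replicate 2.

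Inflammatory transcription rose beside the interferon genes. Among 17 subunits and inhibitors of NF-kB, the factor that drives inflammatory transcription, 15 rose and none fell (median 0.56), and 13 were called higher by the difference from control cells. RELB, a subunit of the non-canonical pathway, rose from 11.4, 6.89 and 8.29 to 20, 20.2 and 20.1 CPM (1.19 ± 0.11). NFKB1 rose from 55, 48.5 and 49.4 to 68.7, 68.8 and 67.5 CPM (0.42 ± 0.05), NFKBIA, the inhibitor IκBα that NF-kB itself induces, by 0.45 ± 0.07, and BIRC3, an inhibitor of cell death and NF-kB target, by 1.05 ± 0.12. In all 4 genes the insulin libraries lay above the vehicle libraries, which was so for 5155 of the 22756 genes tested.

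Of 20 neutrophil chemokines and acute inflammatory genes, 11 rose and 2 fell (median 0.99). IL1A, an alarm cytokine of epithelia, rose from 0.505, 0.195 and 0.373 to 2.19, 2.09 and 1.58 CPM (2.44 ± 0.29), IL6 from 0.421, 0.0779 and 0.166 to 0.98, 1.04 and 0.933 CPM (2.15 ± 0.41, or 3.01 without vehicle replicate 1 and not called without vehicle replicate 2), and ICAM1, a leukocyte adhesion ligand, from 70.5, 64.4 and 64 to 101, 103 and 97.7 CPM (0.60 ± 0.05). ICAM1 fell in control cells (-0.33 ± 0.05), and the difference was 0.94 ± 0.07. VCAM1, another adhesion ligand, fell in H1047R (-0.33 ± 0.05) and in control cells (-0.32 ± 0.05). CXCL12, the ligand of CXCR4, fell from 75.9, 77 and 77.2 to 58, 60.7 and 59 CPM in H1047R cells (-0.37 ± 0.05) and rose in control cells (0.38 ± 0.04).

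AP-1 subunits and immediate early factors, which respond to growth factor and stress kinases, had 16 of 27 members higher and none lower (median 0.61). KLF4 rose from 15.1, 12.8 and 12 to 42.9, 44.1 and 42.2 CPM (1.70 ± 0.07), and JUN, the central AP-1 subunit, from 97.9, 86.6 and 88.5 to 148, 153 and 145 CPM (0.71 ± 0.04). FOS, its usual early partner, was at 5.09, 3.54 and 4.31 and at 5.58, 5.83 and 6.07 CPM and was not called (0.44 ± 0.13, FDR 0.00749). JUN and FOS are also genes that respond to the handling of cells and RNA. Of 5 genes held as RNA quality markers, JUN rose, the nuclear transcript MALAT1 fell (-0.38 ± 0.07, not called with DESeq2 or without insulin replicate 3), and their summed level was 927 to 1051 CPM with vehicle and 790 to 876 CPM with insulin. Its part in these results was not tested. The AP-1 letters TGANTCA, both strands, were found in 5.26% of all promoters, in 4 of 17 promoters of the inflammatory list (23.5%) and in 7 of 17 of the matrix protease list (41.2%).

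Genes that ERK signalling induces and that restrain it in turn separated the states. Of 19 tested, 12 rose and none fell in H1047R cells (median 0.41), while in control cells 9 fell and none rose, and the difference was called higher for 13. DUSP6, a phosphatase of ERK, was at 64.4, 58.6 and 56.6 CPM with vehicle and 90.8, 87.6 and 88.3 CPM with insulin in H1047R cells (0.57 ± 0.05). In control cells it was at 61.4, 55.5 and 54.6 CPM with vehicle and 31.9, 30.5 and 29.5 CPM with insulin (-0.90 ± 0.06). The vehicle libraries of both states lay close together, and the insulin libraries lay on opposite sides of them.

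Other ERK feedback genes behaved alike in their values. SPRY4, which blocks the path from receptor to RAS, rose from 37.4, 29 and 31.9 to 43.1, 43.6 and 44 CPM (0.41 ± 0.07) and fell in control cells (-0.64 ± 0.07). PHLDA1 rose from 123, 110.4 and 113 to 249.7, 239 and 252 CPM (1.09 ± 0.05) against -0.49 ± 0.05 in control cells, and ETV4, an ETS factor induced by ERK, rose by 0.36 ± 0.05 against -0.63 ± 0.06. The summed level of the list was 917 to 1006 CPM with vehicle and 1320 to 1352 CPM with insulin. In control cells it was 885 to 939 CPM with vehicle and 662 to 720 CPM with insulin.

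Ligands that feed ERK moved too. Of 14 EGF family ligands, receptors and regulators, 4 rose and 2 fell (median 0.41). AREG, an EGF receptor ligand, rose from 0.884, 0.545 and 0.621 to 3.43, 2.56 and 2.98 CPM (2.12 ± 0.23), HBEGF from 15.2, 10.9 and 11.3 to 25.5, 23.9 and 24.4 CPM (0.98 ± 0.08), and NRG1, a ligand of ERBB3, from 17.9, 14.4 and 15.8 to 27.8, 26.6 and 27.3 CPM (0.77 ± 0.07). Among receptors, ERBB3 and ERBB2 (-0.35 ± 0.04) fell, and EGFR did not pass (0.16 ± 0.04, FDR 0.0021). In the TGF-beta, activin and BMP list 7 of 25 rose and 6 fell (median 0.14). INHBA, which encodes the activin subunit, rose from 3.03, 2.8 and 3.81 to 6.57, 5.8 and 6.97 CPM (1.01 ± 0.13), and FST, the activin antagonist follistatin, fell from 40.7, 44.5 and 47.7 to 24.9, 21.9 and 22 CPM (-0.95 ± 0.06).

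Targets of YAP and TEAD, which read cell shape and density, were split, with 7 of 22 higher and 9 lower (median -0.09). NT5E, the ectoenzyme CD73, rose from 157, 105 and 113 to 349, 317 and 329.8 CPM (1.41 ± 0.07), whereas CCN2, a matrix protein and commonly used YAP readout, fell from 69.2, 67.7 and 69.1 to 48.8, 44.1 and 44.7 CPM (-0.58 ± 0.05). CCN1, its close relative, fell as well (-0.39 ± 0.04). In control cells all 3 fell, CCN2 by 1.09 ± 0.05, CCN1 by 0.58 ± 0.04 and NT5E by 0.49 ± 0.08 on the log2 scale. The control call of NT5E was lost with DESeq2. The number of YAP targets that rose was 4 without insulin replicate 3.

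Amino acid response genes rose in both states and further in H1047R cells for several members. ATF4 is translated when the kinases of the integrated stress response, or mTORC1, act on translation, and it induces amino acid transporters and tRNA synthetases. Of 34 genes listed 24 rose and 1 fell (median 0.36), against 11 higher and none lower in control cells. The difference was called higher in H1047R cells for 9 of the 34 and lower for 3. Of 23 cytosolic aminoacyl-tRNA synthetases, which charge tRNAs, 12 rose and 1 fell (median 0.23), against 7 higher and none lower in control cells. For these synthetases the difference was called higher in H1047R cells for 7 and lower for 1. The C/EBP-ATF response element letters TGATGCAA, both strands, were found in 72 of the 13370 promoters (0.539%), in 6 of 19 tRNA synthetase promoters (31.6%) and in 2 of 29 promoters of the ATF4 list (6.9%). A gene of each list that rose is given 5′ to 3′ with the match in capitals. CHAC1, which degrades glutathione, lies at chr15:40953221-40953520 (plus strand) and CARS1, the cysteinyl-tRNA synthetase, at chr11:3057374-3057673 (minus strand), both in RefSeq GRCh38.p14.
CHAC1: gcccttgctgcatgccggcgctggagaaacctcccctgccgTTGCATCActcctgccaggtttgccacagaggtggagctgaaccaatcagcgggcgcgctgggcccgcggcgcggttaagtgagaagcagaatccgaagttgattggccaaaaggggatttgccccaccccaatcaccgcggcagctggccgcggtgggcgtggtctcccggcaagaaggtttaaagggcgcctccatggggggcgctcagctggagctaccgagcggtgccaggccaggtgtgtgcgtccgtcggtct
CARS1: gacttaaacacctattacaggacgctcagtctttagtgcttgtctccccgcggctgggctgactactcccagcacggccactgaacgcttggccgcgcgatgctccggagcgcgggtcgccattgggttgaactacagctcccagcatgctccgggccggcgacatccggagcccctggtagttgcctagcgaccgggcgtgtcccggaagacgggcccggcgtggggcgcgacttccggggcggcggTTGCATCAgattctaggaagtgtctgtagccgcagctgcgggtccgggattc
Both matches are read on the strand opposite to the gene.

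CARS1 rose from 70.9, 61.8 and 65.2 to 119.7, 112 and 111 CPM (0.79 ± 0.05). WARS1, the tryptophanyl-tRNA synthetase, which interferon also induces, rose from 152, 140.4 and 128 to 261, 258 and 275 CPM (0.92 ± 0.05), and GARS1, the glycyl enzyme, by 0.60 ± 0.04. QARS1, the glutaminyl enzyme, was the 1 that fell (-0.39 ± 0.04). SLC3A2, the heavy chain of amino acid exchangers, rose from 139.8, 107 and 105 to 294, 283 and 299 CPM (1.32 ± 0.06), and SLC7A11, the cystine exchanger that pairs with it, from 32.1, 26.6 and 32.4 to 61.5, 60.5 and 62.4 CPM (1.02 ± 0.06). SLC3A2 was at 0.27 ± 0.06 in control cells and not called, and SLC7A11 rose there (0.67 ± 0.06). NUPR1, a stress-induced chromatin protein, was the 1 member of the ATF4 list that fell (-0.79 ± 0.07), from 21.5, 21.6 and 22.2 to 13.5, 12.3 and 12.2 CPM.

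Protein folding genes of the endoplasmic reticulum (ER) rose in part. Of 34 sensors, chaperones and degradation factors of the unfolded protein response 13 rose and 1 fell (median 0.13). PPP1R15A, the phosphatase subunit GADD34 that restores translation, rose from 49.4, 42.9 and 42.9 to 107, 102 and 108 CPM (1.23 ± 0.05), and ERO1A, the ER oxidase, from 145, 136 and 146 to 202, 222 and 222 CPM (0.60 ± 0.04). The abundant chaperones rose less, CALR by 0.25 ± 0.03 and HSP90B1 by 0.22 ± 0.03. Of 35 genes of ER targeting, translocon and N-glycan transfer 6 rose and 13 fell (median -0.07), among them OSTC, a subunit of the oligosaccharyl transferase (-0.33 ± 0.04), and SEC61G of the translocon (0.28 ± 0.05). Without vehicle replicate 1, 8 of the 35 fell.

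Heat shock and TRiC chaperones, mostly of the cytosol, rose in 12 of 23 cases with none lower (median 0.18), for example HSPD1, the mitochondrial chaperonin (0.29 ± 0.04), HSP90AB1 (0.29 ± 0.03) and BAG3, a co-chaperone of HSP70 (0.44 ± 0.05). Proteasome subunits rose in 16 of 32 cases with none lower (median 0.18), such as PSMC4, an ATPase of the cap, from 72.5, 69.9 and 70 to 96.1, 101 and 108 CPM (0.52 ± 0.05). NRF2 and glutathione genes were split, with 6 of 24 higher and 6 lower (median 0.01). OSGIN1 rose from 2.48, 2.18 and 2.44 to 6.5, 7.1 and 6.79 CPM (1.52 ± 0.13) and HMOX1, the haem oxygenase, by 0.59 ± 0.06, whereas GPX4, which reduces lipid peroxides, fell by 0.50 ± 0.04 and the ferritin light chain FTL by 0.37 ± 0.04 on the log2 scale. Ferritin has many processed copies in the genome, and FTH1, at -0.18 ± 0.04 here, changed sign when reads were counted without regard to strand. Of 9 tested metallothioneins and their regulators 2 rose, the regulator MTF1 and the zinc exporter SLC30A1 (neither without insulin replicate 3). The 2 that fell were the metallothioneins MT1E and MT1F. Of 36 lysosome and autophagy genes 6 rose and 9 fell, with CTSF, cathepsin F, at -1.13 ± 0.06 and CTSL, cathepsin L, at 0.56 ± 0.05.

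Hypoxia targets and glycolysis genes rose in both states. Of 30 hypoxia targets 22 rose and 2 fell (median 0.48), against 13 higher and none lower in control cells, and of 18 glycolysis genes 14 rose and 1 fell (median 0.39), against 8 and none. CA9, a carbonic anhydrase that HIF factors induce, rose from 20.9, 17.5 and 15.9 to 39, 37 and 38.5 CPM (1.08 ± 0.08), PGK1, phosphoglycerate kinase, from 922, 843 and 811 to 1231, 1301 and 1266 CPM (0.56 ± 0.04), and LDHA, lactate dehydrogenase A, from 875, 756 and 699.7 to 1119, 1104 and 1144 CPM (0.53 ± 0.05). For these 3 the difference from control cells was not called (0.43 ± 0.12, 0.20 ± 0.06 and 0.16 ± 0.07). Over the lists the difference was called higher in H1047R cells for 14 of the 30 hypoxia targets and lower for none. Of the 18 glycolysis genes it was called higher for 6 and lower for 1. HK1, a hexokinase, rose more in H1047R (0.68 ± 0.04) than in control cells (0.22 ± 0.04), a called difference of 0.45 ± 0.06.

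The summed level of the glycolysis list was 17600, 16510 and 15870 CPM with vehicle and 20370, 20300 and 20390 CPM with insulin in H1047R cells. EPAS1, which encodes HIF-2α, fell by 0.25 ± 0.05 on the log2 scale. The core letters ACGTG of the hypoxia response element, both strands, were found in 25.7% of all promoters, in 13 of 26 hypoxia target promoters (50%) and in 8 of 18 glycolysis promoters (44.4%).

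Ribosomal protein genes fell together. Of 31 genes of the small (40S) subunit 28 fell and none rose (median -0.41), and of 47 of the large (60S) subunit 42 fell and none rose (median -0.39). In control cells 1 of the 78 fell, RPL13A. The transcripts of these genes start with a C followed by a run of pyrimidines, the terminal oligopyrimidine (TOP) motif through which mTORC1 controls their translation. In the RefSeq starts, a C as first base within an unbroken run of at least 5 pyrimidines was found in 43 of 63 ribosomal protein genes (68.3%), in 676 of 13370 genes tested (5.06%) and in 168 of 1725 genes that fell (9.74%). The genes that fell include most of the ribosomal protein genes. The 30 bases around the start of 6 such genes are shown with the pyrimidine run in capitals, since they share the start and the direction of change. RPS27 lies at chr1:153990752-153990781, RPS3A at chr4:151099618-151099647, RPL13A at chr19:49487598-49487627 and RPL21 at chr13:27251548-27251577, all on the plus strand, and the elongation factors EEF1A1 at chr6:73521013-73521042 and EEF2 at chr19:3985444-3985473, both on the minus strand.
RPS27: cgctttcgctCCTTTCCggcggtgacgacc
RPS3A: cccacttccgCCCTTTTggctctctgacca
RPL13A: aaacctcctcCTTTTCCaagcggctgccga
RPL21: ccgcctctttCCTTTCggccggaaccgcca
EEF1A1: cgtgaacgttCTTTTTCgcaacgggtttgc
EEF2: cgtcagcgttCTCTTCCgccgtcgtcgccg
These were picked for the motif among genes that fell, and no rule was drawn from them.

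RPS27 fell from 327, 403 and 338 to 236, 220.3 and 217 CPM (-0.67 ± 0.05), and RPL23 from 811, 966 and 894 to 537, 568 and 545 CPM (-0.69 ± 0.05). RPS3A fell from 374, 383 and 376 to 243, 247 and 238 CPM (-0.64 ± 0.04), RPL13A by 0.60 ± 0.04 and RPL21 by 0.58 ± 0.05 on the log2 scale. No insulin library reached a vehicle library in any of these 5 genes. The insulin libraries lay wholly below the vehicle libraries in 5047 of all 22756 genes tested. The difference from control cells was called lower for 21 of the 40S and 29 of the 60S genes. Ribosomal protein genes have many processed copies, their counts hold only reads placed at 1 site, and the share of reads placed at several sites moved in the same libraries. Its part in the fall was not tested.

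Translation factors split, with 7 of 41 higher and 12 lower (median 0.02). EEF1A1, which brings charged tRNA to the ribosome, fell from 4619, 4895 and 4629 to 3249, 3394 and 3299 CPM (-0.51 ± 0.03), EEF2, which moves the ribosome along, from 3753, 4067 and 3829 to 2828, 2853 and 2867 CPM (-0.45 ± 0.03), and EIF4B, a helper of the cap-binding complex, from 574, 639 and 616 to 372, 391 and 370.4 CPM (-0.69 ± 0.04). Several initiation factors rose, such as EIF5 (0.48 ± 0.04) and EIF3B (0.26 ± 0.04), and 4 rather than 7 did so without insulin replicate 3. Genes that build ribosomes moved opposite to those that form them: of 42 biogenesis genes 20 rose and 1 fell (median 0.23), with DDX21, a nucleolar helicase, at 233, 218 and 226 against 274, 279 and 279.8 CPM (0.30 ± 0.04), POLR3G, an RNA polymerase III subunit, at 0.97 ± 0.11 and NPM1, a nucleolar chaperone, at -0.22 ± 0.03. Among 14 snoRNA host genes, whose transcripts often carry a TOP start, 6 rose and 2 fell (median 0.24), 1 rather than 2 falling without vehicle replicate 1 or 2 or insulin replicate 1 or 2, and SNHG12 rose from 9.64, 6.66 and 8.2 to 21.2, 22.5 and 21.9 CPM (1.43 ± 0.09).

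Genes of the respiratory chain fell on both genomes. All 13 tested genes encoded by mitochondrial DNA fell (median -0.49), and 7 of them fell in control cells. MT-CYB, cytochrome b of complex III, went from 1778, 1918 and 1805 to 1033, 1068 and 1024 CPM (-0.82 ± 0.03), and in control cells from 1934 to 1973 CPM with vehicle to 1559 to 1687 CPM with insulin (-0.26 ± 0.03). MT-CO2, a subunit of cytochrome c oxidase, fell about as far in both states (-0.30 ± 0.04 and -0.28 ± 0.04). Of 37 nuclear subunits of complex I, 13 fell and none rose (median -0.23), for example NDUFB1, from 38.4, 42.8 and 44.1 to 27.6, 29.7 and 25.1 CPM (-0.61 ± 0.07). Of 38 subunits of complexes II to V, 22 fell and none rose (median -0.28), for example COX7C, from 219.6, 218 and 211 to 149.8, 159 and 149 CPM (-0.50 ± 0.04).

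Not all mitochondrial genes fell. ATP5F1B, the catalytic subunit of ATP synthase, was at 694, 702 and 689 and at 675, 677 and 668 CPM (-0.05 ± 0.03, not called). Of 76 mitochondrial ribosomal proteins 2 rose and 7 fell (median 0.01), with MRPS2 at 0.60 ± 0.05 and MRPL33 at -0.43 ± 0.06. The number that rose was 10 without vehicle replicate 1, 7 with no filter on low counts and 8 after an adjustment for gene length. Copies of mitochondrial DNA in the nuclear genome can take reads from the 13 genes, and the share of multiply placed reads moved beside them, as above.

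**Figure D4:**
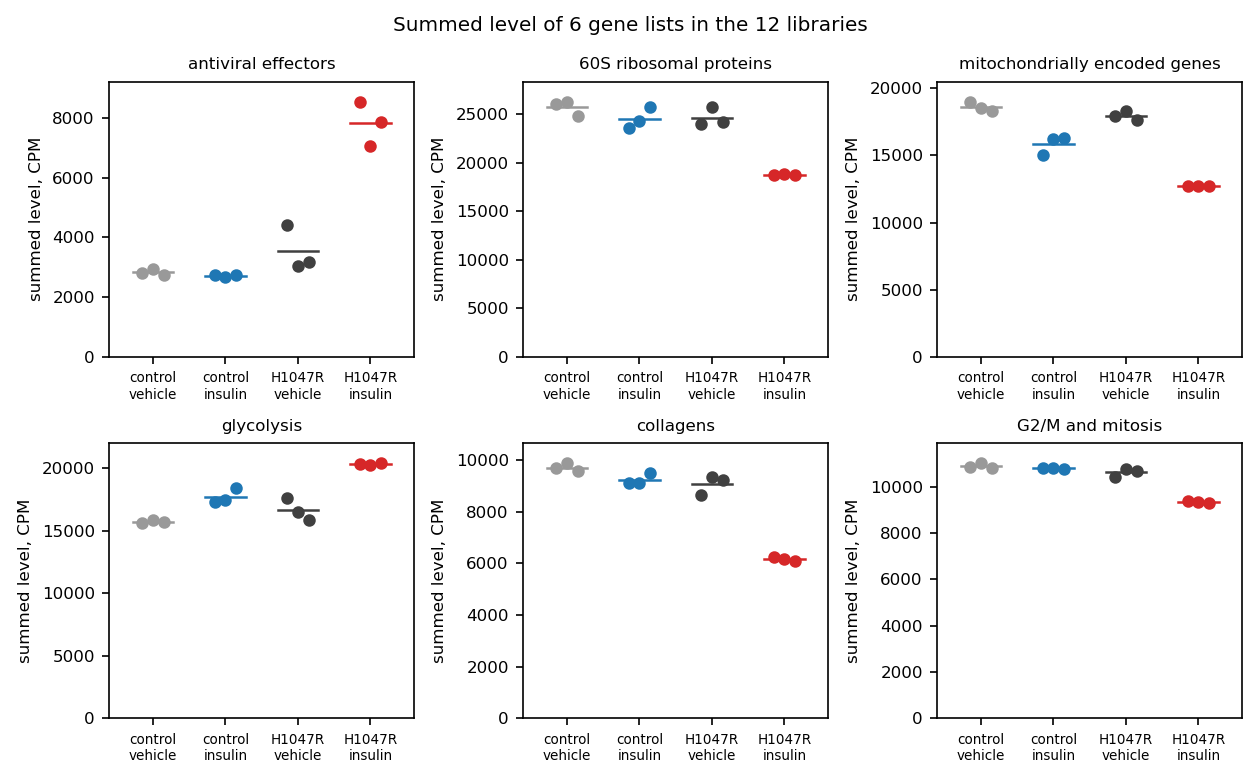
Summed level in CPM (y axis) of 6 gene lists in the 12 libraries, grouped by cell state and treatment, with a point per library and a line at each group mean. The H1047R insulin libraries are the lowest of the 12 for 60S ribosomal proteins, mitochondrially encoded genes, collagens and mitotic genes and the highest for antiviral effectors and glycolysis, for which the control insulin libraries lie between 17280 and 18450 CPM.

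Stromal matrix genes had the lowest median of the lists. Of 26 small leucine-rich proteoglycans and other stromal matrix genes 15 fell and 2 rose (median -0.54), and of 28 collagens 12 fell and 5 rose (median -0.22). DCN, the proteoglycan decorin (hg38 chr12:91140484-91183217, minus strand), fell from 61, 84.7 and 83.8 to 10.1, 9.9 and 7.54 CPM (-3.07 ± 0.10). LUM, the related lumican, fell from 267, 336 and 349 to 86, 86.8 and 69.1 CPM (-1.98 ± 0.07), and POSTN, the matrix protein periostin, from 246, 316 and 289.5 to 79, 77.5 and 76.4 CPM (-1.87 ± 0.05). In control cells none of the 3 was called for insulin, and DCN lay between 79.1 and 109.5 CPM. Other members did fall there, with 9 of the 26 stromal matrix genes lower and 1 higher. Of the 28 collagens 6 fell in control cells and none rose. The difference between the states was called lower for 9 stromal matrix genes and higher for 1, and lower for 7 collagens and higher for 5.

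COL3A1, a fibrillar collagen, fell from 1821, 2035 and 1998 to 927, 923 and 878 CPM (-1.10 ± 0.04), COL1A1 from 2704, 2904 and 2857 to 2031, 1989 and 1966 CPM (-0.50 ± 0.03), and FN1, fibronectin, by 0.53 ± 0.04 on the log2 scale. FN1 fell in control cells as well (-0.34), and its difference was not called (FDR 0.0184). Other collagens rose in H1047R cells, some of them of epithelial anchorage. COL17A1, of hemidesmosomes, rose from 1.39, 0.312 and 0.787 to 5.68, 4.35 and 4.72 CPM (2.58 ± 0.23, or 3.19 without vehicle replicate 1), COL7A1, of anchoring fibrils, from 2.53, 1.87 and 2.9 to 4.57, 4.92 and 4.28 CPM (0.92 ± 0.15), and COL13A1, a membrane collagen, from 23.5, 17.1 and 17.3 to 42, 39.4 and 40.5 CPM (1.07 ± 0.08). COL27A1, another collagen (log2 fold change 0.73 by DESeq2), and TNC, the matrix protein tenascin C (0.58 ± 0.05), also rose.

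Of 26 integrin and laminin chains 5 rose and 11 fell (median -0.14). ITGA2, the collagen receptor subunit, rose from 73.9, 57.9 and 66 to 219.7, 208 and 213 CPM (1.70 ± 0.06), and LAMB3, a laminin chain of epithelial basement membrane, rose by 1.24 ± 0.19. LAMA3, a chain of the same laminin, fell from 29.7, 32.6 and 33.2 to 19.6, 19.1 and 18.8 CPM (-0.74 ± 0.06), and ITGB4, the integrin subunit that binds it in hemidesmosomes, fell by 0.71 ± 0.05 on the log2 scale. These laminin chains did not share a direction. Contractile genes had 3 of 19 higher and 9 lower (median -0.14), with TPM1, a tropomyosin, at -0.40 ± 0.04, CALD1, caldesmon, at -0.44 ± 0.04, and the crosslinker ACTN1 at 0.31 ± 0.04.

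Of 29 matrix proteases, plasminogen system genes and inhibitors 11 rose and 6 fell (median 0.14). MMP1, the interstitial collagenase, rose from 0.631, 0.39 and 0.456 to 3.89, 3.77 and 3.5 CPM (2.91 ± 0.28), and MMP9, a gelatinase, had 0, 0 and 1 counts with vehicle and 16, 17 and 23 with insulin. PLAUR, the urokinase receptor, rose from 27.9, 22.8 and 23.5 to 66.7, 66.4 and 62.2 CPM (1.40 ± 0.06). Other proteases fell, the gelatinase MMP2 from 68, 72.6 and 67.1 to 37.7, 37.4 and 37.3 CPM (-0.89 ± 0.05) and the aggrecanase ADAMTS5 from 17.4, 23.7 and 24.9 to 8.92, 7.07 and 7 CPM (-1.53 ± 0.10). In control cells 6 of the 29 fell and none rose. MMP2 (-0.24) and ADAMTS5 (-0.51) were among those that fell there, and each of these control calls was lost in at least 4 alternatives. The mesenchymal marker list, which holds DCN and COL1A1, had 7 of 9 members lower and 1, VIM, higher (median -0.46), a call lost without any 1 of vehicle replicates 2 and 3 and insulin replicates 1 and 2, and its summed level was 6114 to 6206 CPM with vehicle and 5083 to 5248 CPM with insulin. Of 9 epithelial markers 1, KRT19, rose and 1, KRT7, fell. No immune marker of 6 was called, and of 6 endothelial markers VWF rose (0.92 ± 0.16).

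Mitotic genes fell by small steps. Of 36 genes of G2 and mitosis 20 fell (55.56%) and 2 rose (median -0.18), and of 36 genes of S phase and DNA replication 9 fell (25%) and 2 rose (median -0.08). In the highest bin of level 26.32% of all genes were called lower, and the S phase share lay near it. None of the mitotic genes rose without vehicle replicate 2. CDK1, the kinase of mitotic entry, fell from 302, 323 and 326 to 245, 245 and 234 CPM (-0.39 ± 0.04), and TOP2A, a topoisomerase of dividing cells, by 0.34 ± 0.03 on the log2 scale. MKI67, the Ki-67 antigen, was at 918, 919 and 938 and at 898, 811 and 880.3 CPM and was not called (-0.10 ± 0.04, FDR 0.045). CCND1, cyclin D1, rose from 183, 152 and 165 to 323, 331 and 328 CPM (0.97 ± 0.05), and CCND3 by 0.52 ± 0.05. Of 18 cyclins, their kinases and inhibitors 3 rose and 6 fell (median -0.10), the third that rose being CDKN1A, the inhibitor p21, at 0.41 ± 0.04 in H1047R and 0.40 ± 0.04 in control cells.

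Of 25 p53 targets 14 rose and 2 fell (median 0.41). PMAIP1, the death-promoting BCL2 family protein NOXA, rose from 41.6, 28.7 and 30.8 to 124, 119.5 and 121 CPM (1.85 ± 0.07), and TNFRSF10B, a receptor of TRAIL, by 0.47 ± 0.04. Within the BCL2 family 4 of 15 rose and 2 fell (median 0.11), and 2 rose when any 1 library but vehicle replicate 1 was left out. MCL1, which NOXA opposes, rose as well, from 218, 212 and 222 to 277, 279.6 and 292 CPM (0.38 ± 0.04), and BMF fell from 14.5, 14.2 and 14.3 to 7.67, 8.91 and 8.74 CPM (-0.76 ± 0.08). BCL2L11, the FOXO target BIM, was not called (-0.09).

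Among endometrial lineage factors and steroid receptors 2 of 15 rose and 4 fell (median -0.07), 1 rising without vehicle replicate 3 or insulin replicate 3. NR3C1, the glucocorticoid receptor, rose from 219, 221 and 221 to 277, 277 and 288 CPM (0.35 ± 0.04), and HOXA10, a homeobox factor of the endometrium, fell from 36.6, 41.5 and 45.7 to 26.6, 28.5 and 28.5 CPM (-0.57 ± 0.07). GATA6 (-0.27 ± 0.05) and NR2F1 (-0.50 ± 0.05) fell too. Among 14 EMT factors and cadherins 2 rose and 4 fell (median -0.08), and 2 fell without vehicle replicate 3 or insulin replicate 1, in both cases without CDH6, which was not called without insulin replicate 3 either. SNAI1 and SNAI2, repressors of E-cadherin, rose by 0.91 ± 0.15 and 0.62 ± 0.08, and CDH6, a cadherin of epithelia, fell in H1047R cells from 7.92, 7.63 and 8.49 to 5.52, 6.24 and 5.7 CPM (-0.46 ± 0.10) and rose in control cells (0.61 ± 0.09).

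The largest changes among genes averaging at least 1 CPM were of mixed kinds. ACTN2, a sarcomeric actinin on the list of contractile genes, rose from 0.926, 0.467 and 0.414 to 7.51, 6.96 and 8.01 CPM (3.64 ± 0.19), ABCC9, a regulatory subunit of potassium channels, from 0.337, 0.39 and 0.166 to 2.25, 2.81 and 2.38 CPM (3.04 ± 0.28), and the myosin heavy chain pseudogene MYH16 from 0.631, 0.312 and 0.29 to 3.72, 3.91 and 3.63 CPM (3.19 ± 0.24). Among decreases were WNT2, a Wnt ligand, from 3.58, 4.75 and 4.72 to 1.01, 0.605 and 0.7 CPM (-2.51 ± 0.18), GAS1, a growth arrest gene and Hedgehog co-receptor, from 38.1, 46.7 and 48.4 to 8.72, 9.19 and 7.99 CPM (-2.37 ± 0.08), and MC4R, a melanocortin receptor (-1.90 ± 0.14). The histone genes H1-4 (-2.47 ± 0.24) and H4C5 (-1.95 ± 0.23) fell and H4C14 rose (3.09 ± 0.36). Histone genes are near copies of one another and their main transcripts lack poly(A) tails, so their counts are uncertain.

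Insulin changed fewer genes in control cells. With the same test 372 genes were called there (1.63%), 110 higher (0.483%) and 262 lower (1.15%). Of the 110, 72 (65.5%, which is 3.21% of those that rose in H1047R cells) also rose in H1047R cells and 6 fell. Of the 262, 133 (50.8%, or 5.97% of those that fell in H1047R cells) also fell and 52 (19.8%) rose. Leaving out 1 control library ended the control calls of INSR, IRS1, VCAM1, INHBE, HK1, RPL13A and ALDH1A1 for at least 3 choices of the library (FDR up to 0.0122 over all alternatives). The difference of the insulin effects was called for 2064 genes (9.07%), higher in H1047R cells for 1043 (4.58%) and lower for 1021 (4.49%). The 2 states differ in plasmid and in PIK3CA level, so the difference does not separate the mutation from its level.

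Genes with opposite effects lie off both axes in the plot of the states. ALDH1A1, a retinaldehyde dehydrogenase, fell in H1047R cells from 0.842, 1.56 and 2.28 to 0.229, 0.358 and 0.389 CPM (-2.22 ± 0.32) and rose in control cells from 2.48, 1.64 and 1.63 to 4.37, 3.54 and 5.19 CPM (1.17 ± 0.20). CXCL8, the neutrophil chemokine IL-8, rose in H1047R cells from 3.07, 1.99 and 1.74 to 12.9, 10.6 and 10.6 CPM (2.32 ± 0.14), and in control cells it was at 1.45, 1.61 and 1.35 and at 0.991, 0.756 and 0.455 CPM (-0.999 ± 0.26, not called). INHBE, an inhibin subunit induced by ATF4, rose in both (1.33 ± 0.20 and 1.47 ± 0.26), with no called difference. WNT2 and DCN fell only in H1047R cells, with called differences of -2.48 ± 0.23 and -2.86 ± 0.12.

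**Figure D5:**
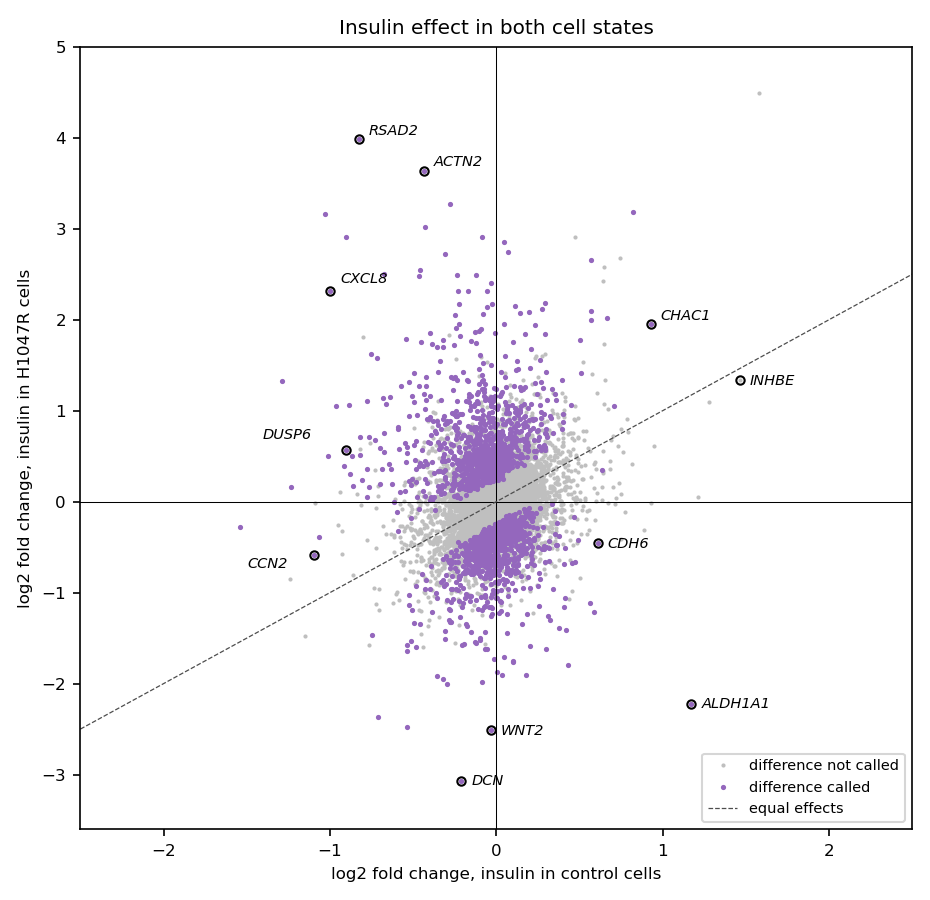
Log2 fold change of insulin in control cells (x axis) against that in H1047R cells (y axis) for 13302 genes averaging at least 1 CPM over the 12 libraries, with the 2048 genes whose difference was called in purple and the others in grey. RSAD2 lies near the top (3.98 on the y axis, with no called effect in control cells) and DCN at the bottom (-3.07), while DUSP6 and CXCL8 lie above 0 on the y axis and below 0 on the x axis.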

How the data were processed

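Libraries were made from total RNA of 12Z cells (500 ng per library) with an mRNA kit, per the study's methods. They came from 3 cultures in each of 4 groups, and 6 of the 12 libraries were compared here. Per the study's methods and the submitters' processing notes, reads were trimmed with cutadapt and Trim Galore and aligned to hg38 with STAR (versions not given in the sources used here). From these the authors deposited STAR's raw gene counts, without normalization, which hold read pairs placed at 1 site only. The methods name a mouse annotation, and the human release is not given in the sources used here. Positions of genes came from GENCODE 44, in which 60357 of 60617 identifiers had a position, and symbols were found for 42009.

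Reverse-strand counts were used, and rows of unplaced, multiply placed, unassigned and ambiguous reads (3.21 to 3.5%, 8.48 to 15.2%, 3.91 to 4.55% and 3.34 to 3.61% in the 6 libraries) stayed out of library sizes and tests. The test was edgeR 4.0.16 (functions glmQLFit, glmQLFTest; R 4.3.3) with TMM scaling, on genes whose mean was 1 count or more, in 1 fit of the 12 libraries by group with 8 degrees of freedom left over. Contrasts were insulin in H1047R cells, insulin in control cells and their difference. A call required a false discovery rate (FDR, by Benjamini-Hochberg; the study weighted hypotheses after DESeq2) under 0.001, the cutoff of the study, and all adjusted p-values are from this test. DESeq2 1.42.0, another scaling, filter, strand, depth and gene length, a replicate block and leaving out libraries were alternatives. Scripts were tested on simulated data. Replicate pairs differed by more than counting noise (chi-square over its degrees of freedom 2.70 to 5.90 for genes whose pair held 20 or more counts), and all were counted as separate samples.

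The comparison and the 53 gene lists and 6 marker lists were chosen with earlier results of these data known, so they are descriptions and received no test of their own. Of their 1425 entries 2 (SOD2 in 2 lists) were not matched. Named by rule were PIK3CA, RSAD2, INSR and IRS2, the 12 genes with the largest increase and decrease averaging at least 1 CPM, with a symbol and no overlap between groups, the 5 most abundant called genes in each direction, in each list the 4 called members with the largest change in each direction and the 3 most abundant (all members of lists of 20 or fewer), and the 8 largest differences each way. Promoters came from a RefSeq table of 27305 genes. Results for some genes named by rule are not reported here. Libraries with RSAD2 knockdown or viperin overexpression were not used here. Depth limits the precision of genes with few counts. Raw counts are given for some of those, and others, such as IFNL1 and IL6, are given in CPM only.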

Additional observations from a re-analysis of the deposited data

Results flagged for a closer look

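The insulin effect differed between H1047R and control cells for 2064 genes by the interaction contrast of the edgeR fit (FDR below 0.001). Among genes averaging at least 1 CPM over the 12 libraries, the largest differences toward higher values in H1047R cells, as log2 fold change in H1047R minus that in control cells, were RSAD2 at 4.81, IFI44L at 4.20, ACTN2 at 4.07, OAS2 at 3.82, CMPK2 at 3.54, OASL at 3.45, CXCL8 at 3.32 and OAS1 at 3.17. RSAD2, IFI44L, OAS2, CMPK2, OASL and OAS1 are interferon-induced genes, ACTN2 encodes a sarcomeric actinin and CXCL8 a neutrophil chemokine. Toward lower values they were ALDH1A1 at -3.40, DCN at -2.86, WNT2 at -2.48, LRRTM3 at -2.23, MC4R at -2.08, H1-4 at -1.94, GYG2 at -1.94 and GSG1 at -1.92. ALDH1A1 rose in control cells with insulin and fell in H1047R cells, while the other 7 had no called effect in control cells. Without H1047R vehicle replicate 1 the differences were 5.93 for RSAD2, 5.27 for IFI44L, 4.86 for OAS2, 4.15 for CMPK2, 4.14 for OASL and 4.13 for OAS1. Without control vehicle replicate 2 those of IFI44L (FDR 0.0386), ACTN2, OAS2 and CMPK2 were not called, and IFI44L was not called by DESeq2 either. Without control insulin replicate 2 the difference of ACTN2 was 4.81. That of GSG1 was lost without any 1 of 7 libraries, with FDR from 0.00102 to 0.00387. PIK3CA level differs between the same groups, and its part in these differences cannot be told apart from that of insulin.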

How the results depend on the processing

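The number of genes called for insulin in H1047R cells was 4471, and 4529 with DESeq2 size factors, 4564 with library totals only, 4454 with DESeq2, 4825 with no filter on low counts, 4354 with at least 1 CPM in 3 libraries, 4339 without regard to strand, 4112 after thinning to the smallest library, 4637 with the length offset, 4251 from the 6 libraries alone and 3471 to 4647 when 1 library was left out. The share of calls that were higher was 50.1%, 58.3% with library totals only and 57.1% with no filter. In control cells the number called was 372, and 233 to 295 when 1 library was left out, with 63 to 92 genes higher and 170 to 208 lower. The lowest values came without insulin replicate 2. With no filter 170 genes were higher there. The difference was called for 2064 genes, and for 1562 to 2564 when 1 library was left out. Of the 607 named genes 429 were called. Of these, 70 lost their call in at least 1 alternative and at most 50 in any 1 (without vehicle replicate 2). FTH1 reversed, from -0.18 to 0.0142, without regard to strand, and the cause was not tested. The 3 replicate numbers were not used to pair the samples, and whether they pair them cannot be settled from 3 libraries per group. Deviations of same-numbered H1047R vehicle and insulin libraries correlated at 0.087, 0.042 and 0.025 over 13302 genes. Those of differently numbered H1047R libraries correlated at -0.086 to 0.06, and vehicle replicate 3 correlated best with insulin replicate 2 (0.06). With a replicate block 4435 genes were called in H1047R cells, 366 in control cells and 2062 for the difference, with the same direction and call as without it for 602 of 607 named genes, a lost call for 4, a gained call for 1 and no change of direction. A gene with 0 counts in the vehicle group was bounded at 3 counts, which covers counting error only.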
